A study of Mus musculus with 35 samples.

Results

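The ionotropic and metabotropic glutamate receptor genes and the genes of their auxiliary subunits were described in the medial prefrontal cortex (mPFC) of wild-type (WT) and Shank3-deficient (KO) mice. The 31 genes were taken by symbol from a fixed list, and all 31 have a row among the 14870 genes of the deposited matrix. They are 4 AMPA receptor subunits (Gria1 to Gria4), 6 NMDA receptor subunits (Grin1, Grin2a to Grin2d, Grin3a), 5 kainate receptor subunits (Grik1 to Grik5), 1 delta receptor subunit (Grid1), 6 metabotropic receptors (Grm2, Grm3, Grm4, Grm5, Grm7, Grm8), 7 AMPA receptor auxiliary subunits (Cacng2, Cacng3, Cacng8, Cnih2, Shisa6, Shisa7, Shisa9) and 2 kainate receptor auxiliary subunits (Neto1, Neto2).

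Bulk RNA of mPFC punches was sequenced in 35 libraries, 15 labelled female and 20 labelled male. The mice had water as control, antibiotics (abx), acetate, or both (abx_and_acetate). The groups are WT_control with 6 libraries, WT_abx with 4, WT_acetate with 5 and WT_abx_and_acetate with 4 among the WT, and KO_control with 4, KO_abx with 3, KO_acetate with 5 and KO_abx_and_acetate with 4 among the KO. The labels used here give the genotype only as WT or KO, with no allele, strain, age, dose or duration, and they name no animal for a library. Spread and p-values are therefore those between libraries, which may be partly technical. Libraries carry their group and a running number with no other meaning, as in KO_acetate 1.

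AMPA, NMDA and kainate receptors are tetrameric channels opened by glutamate. AMPA receptors carry most fast excitatory current, and NMDA receptors admit calcium when glutamate binds while the membrane is depolarised. The metabotropic receptors signal through G proteins, and auxiliary subunits set the gating and the synaptic placement of the channels. The product of Shank3 is a scaffold in the postsynaptic density, the structure under excitatory synapses to which these receptors are tied through other scaffolds.

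Log2 CPM, the log2 of read counts scaled to library size, was the scale of all values, and a fold is a difference on it. The size used in this scaling was not the plain sum of a library's reads. Depth ran from 12.8 M to 28.0 M reads, and every one of the 31 genes had at least 141 reads in every library. In the check of the genotype, Shank3 ran from 4.07 to 5.11 over 16 KO libraries and from 8.22 to 8.85 over 16 of the WT. The 3 libraries labelled WT_abx 4, WT_acetate 2 and WT_acetate 5 lay between, at 7.48 to 8.08. Acr, the gene next to Shank3, was at 3.62 to 4.56 in these 3, at 5.04 to 5.78 in KO and at most 0.83 in the other WT libraries. They are counted here as labelled. In 4 libraries (labelled WT_abx 3, WT_acetate 2, WT_acetate 4 and WT_acetate 5) Y-linked genes did not match the labelled sex. In WT_abx 3, WT_acetate 2 and WT_acetate 4 they stood at the level of the other sex. WT_acetate 5, labelled female, lay between the sexes. It stood at 29.9% of the way from the median of libraries labelled female to that of libraries labelled male. Excitatory neuron markers were present throughout: Slc17a7, the vesicular glutamate transporter of cortical pyramidal cells, was at 10.48 to 11.06.

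No receptor gene passed the test in any of 18 comparisons (limma, Benjamini-Hochberg adjusted p below 0.05 over all genes), and the smallest adjusted p of a receptor gene was 0.205. Outside abx_and_acetate against control in WT, at most 10 genes of all passed in a comparison. Between KO and WT the share of all genes called was 0.0202% in control, 0.0134% with abx, 0.00672% with acetate, 0.0134% with abx_and_acetate and 0.0202% averaged over treatments. Against control in WT it was 0% for abx, 0.00672% for acetate and 0.726% for abx_and_acetate (108 genes), and against control in KO it was 0.0134% for abx and 0% for acetate and for abx_and_acetate. It was 0% for abx_and_acetate against abx in either genotype, for abx present against absent and for the 3 interactions of treatment with genotype, and 0.0672% for acetate present against absent.

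At an unadjusted p below 0.05 stood 28 of the 558 tests of receptor genes (5.02%), against 18366 of 267660 tests over all genes (6.86%). The 28 belonged to 13 genes: Grin2a in 7 comparisons, Shisa9 in 4, Grin2b and Grin3a in 3 each, Grm7 and Cacng2 in 2 each, and Gria2, Grin2d, Grik3, Cacng3, Shisa6, Shisa7 and Neto2 in 1 each. The other 18 receptor genes had none. The median residual SD between libraries of a group was 0.18 over the receptor genes and 0.17 over all genes. These sets were not matched for expression level, so the values do not say how variable receptor genes are beside genes of similar level.

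**Figure D1:**
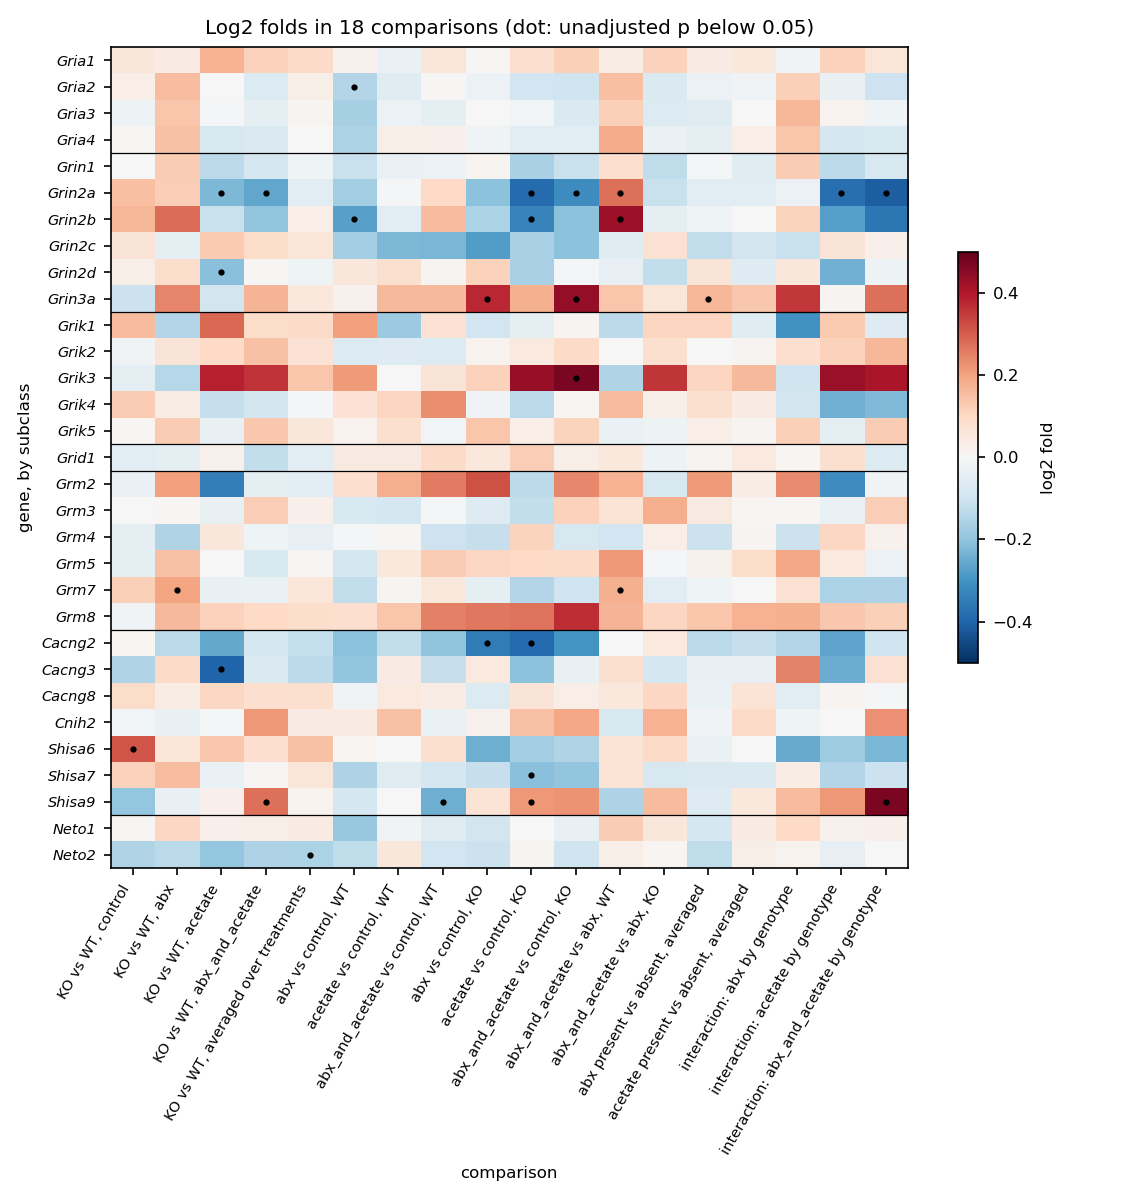
Log2 folds of the 31 receptor genes (rows, by subclass) in 18 comparisons (columns), with colour for the size and a dot where the unadjusted p is below 0.05. The 28 dots are scattered over 13 genes, with 7 in the row of Grin2a, and none of them passes the adjusted threshold.

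The averaged genotype comparison gives the narrowest limits on a Shank3 effect. For all 31 genes the 95% confidence interval of KO minus WT, averaged over treatments, lay within 0.5 of zero on the log2 scale, for 25 within 0.3 and for 19 within 0.2. The largest fold in size was -0.16 (Neto2), and the interval bounds reached from -0.36 (Grm2) to 0.37 (Grik3). In this comparison 21 receptor genes were higher and 10 lower in KO, with a median fold of 0.03, while 50.4% of all genes were higher with a median of 0.00. The comparison counts the 3 libraries of intermediate Shank3 as WT. Without them 31 intervals lay within 0.5, 23 within 0.3 and 17 within 0.2, from -0.45 (Grm2) to 0.42 (Grik3). The largest fold in size was then -0.22 (Neto2), and 19 genes were higher in KO with a median fold of 0.01. Without the library labelled WT_abx 4 alone, 17 were higher with a median of 0.00. Averaged over treatments and genotypes, acetate gave intervals within 0.3 for 28 genes and antibiotics for 27. Within 1 treatment the limits were wider: in control, 15 of 31 intervals lay within 0.3 and 29 within 0.5.

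**Figure D2:**
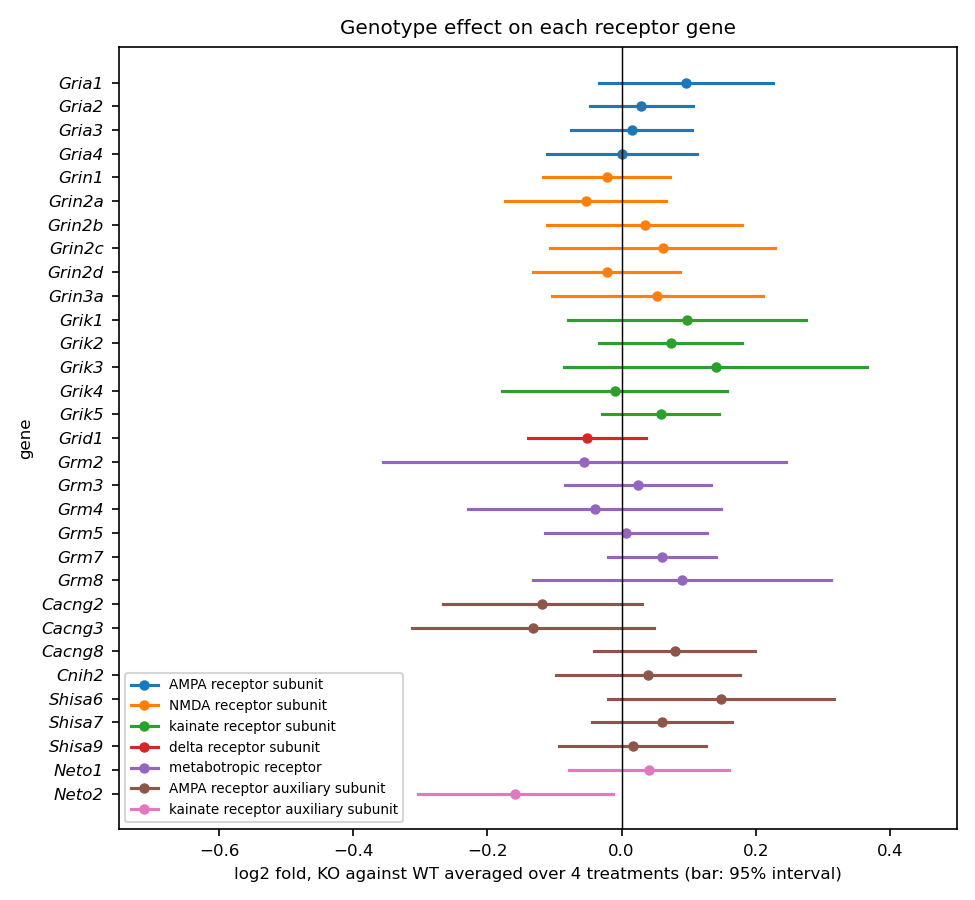
Fold of KO over WT averaged over treatments for each receptor gene (log2, points) with its 95% confidence interval (bars). All 31 intervals lie inside 0.5 on either side of zero, and that of Neto2 is the 1 interval that leaves out zero at the unadjusted level.

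To compare levels between genes, CPM was divided by the length of each gene's merged exons in GENCODE vM21 (GRCm38), to which all 31 genes matched. On this scale (log2 CPM per kb) the receptor genes ran from 0.43 (Shisa6) to 7.001 (Cnih2), and the median of all matched genes was 2.28. Cnih2 encodes cornichon-2, which keeps AMPA receptors open for longer, and it stood 0.96 ± 0.29 (SD of the difference, n = 35) above Grin1, in 35 of 35 libraries. Its exons overlap those of Yif1a on the opposite strand, and the strand setting of the counting is not given. Next came Grin1 at 6.04, Gria1 at 5.83, and Cacng3 and Grik5, both at 5.73. Grin1 was above Gria1 in 30 libraries, and the order of Cacng3 and Grik5 was split, with Cacng3 higher in 18 of 35. With the longest transcript as the length, Grin1 (7.22) changed places with Cnih2 (7.03), so their order rests on the gene model. Grik5 (6.08) and Gria1 (5.95) then came next, and Cacng3 (5.73) fell behind Gria2 (5.85) and Gria3 (5.80).

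The lower end of the order by merged exons was held by Grm8 at 1.19, Grik1 at 0.82 and Shisa6 at 0.43. With longest transcripts Grik2 (2.19) stood below Grm8 (2.23), while Grik1 and Shisa6 remained the lowest. Grik1 encodes a kainate receptor subunit, and Shisa6 an AMPA receptor auxiliary subunit. Grik1 was above Shisa6 in 31 of 35 libraries and Grm8 above Grik1 in 30. In log2 CPM, Grik1 ran from 3.12 to 4.12 and Shisa6 from 2.85 to 4.02, so both were well measured (149 to 439 and 141 to 349 reads). Between these ends, neighbours were often not separated: Cacng8 (5.27) was above Gria2 (5.26) in 18 of 35 libraries, Grin2b (4.44) above Cacng2 (4.44) in 17, and Shisa9 (3.63) above Grin2a (3.62) in 17.

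**Figure D3:**
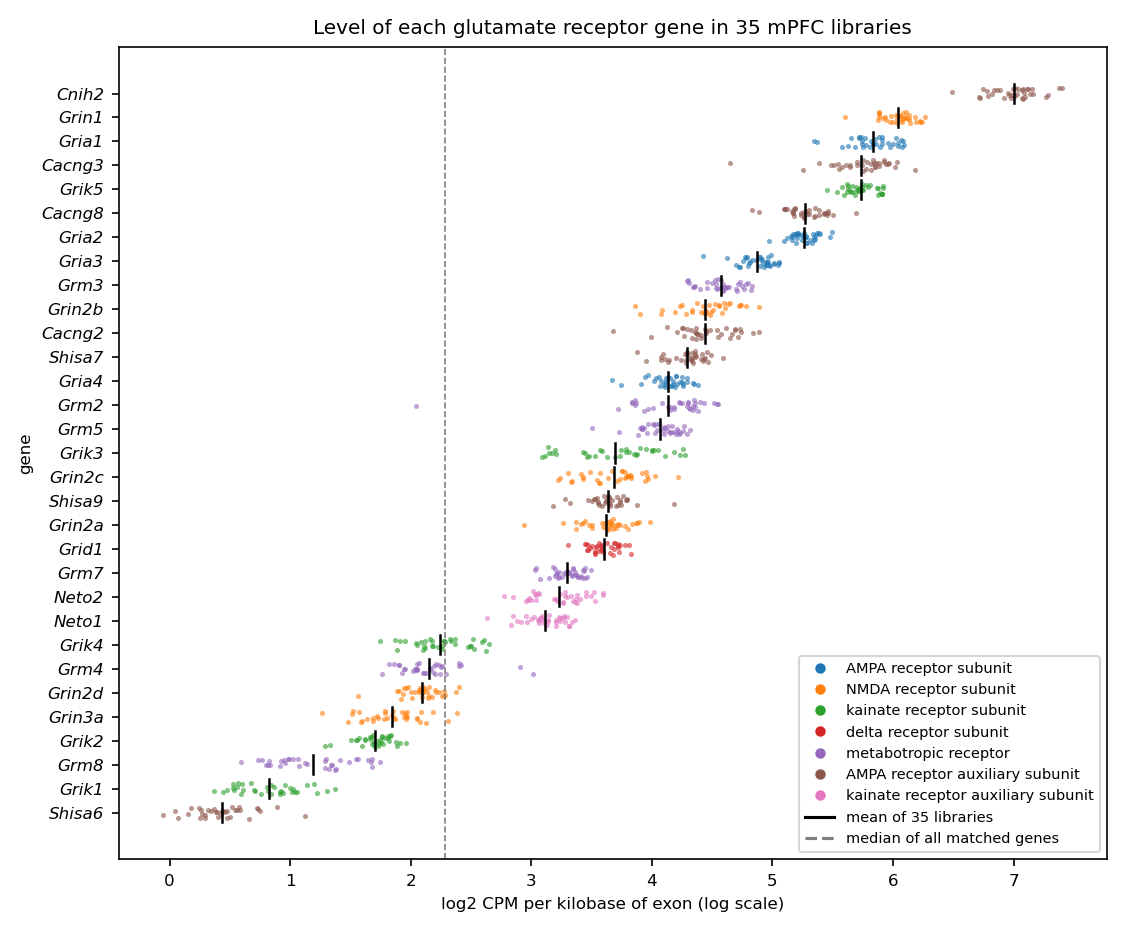
Level of each receptor gene in log2 CPM per kb of merged exons, with 1 point for each of 35 libraries, genes ordered by mean level and subclass shown by colour. Levels reach from 0.43 on average (Shisa6) to 7.001 (Cnih2), and 1 point of Grm2 lies far below the rest.

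Among the AMPA receptor subunits, no gene passed the test in any comparison. Their KO minus WT folds averaged over treatments were 0.00 to 0.10, and without the library labelled WT_abx 4 those of Gria3 and Gria4 were -0.01 and -0.03. Gria1 supplied 40.0% ± 2.7 (SD, n = 35) of the summed CPM per kb of the 4 genes, Gria2, the subunit that makes the channel impermeable to calcium when edited, 27.0% ± 1.8, Gria3 20.6% ± 1.1 and Gria4 12.4% ± 1.1. These shares depend on the gene model: with longest transcripts they were 31.8%, 29.4%, 28.4% and 10.4%. The share of Gria1 lay between 38.4% (WT_control) and 42.4% (KO_abx_and_acetate) over the 8 group means.

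Of these 4 genes, Gria1 had the largest averaged fold. It ran from 8.22 to 8.51 in WT_control (median 8.35, n = 6) and was at 8.50, 8.49, 8.45 and 8.24 in KO_control, so the groups overlapped. Its KO minus WT fold averaged over treatments was 0.10 ± 0.06 (SE), adjusted p = 0.957 (limma), and 0.06 without the library labelled WT_abx 4. With antibiotics the fold was 0.04, and -0.09 without that library. Of the 31 receptor genes, Gria1, Cacng8, Shisa6 and Neto1 had a fold above zero in all 4 treatments, but without the library labelled WT_abx 4 the fold of each with antibiotics was below zero. Without KO_acetate 1 the folds of Shisa6 and Neto1 with acetate were below zero as well. Neto2 was below zero in all 4 treatments with that library and without it. None of these 5 passed the test.

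Gria2 (chromosome 3, 80681450 to 80802835, minus strand, GRCm38) had the smallest residual SD of the 31 genes, 0.11. It ran from 9.08 to 9.44 in WT_control (median 9.26) and was at 9.05, 9.21, 9.24 and 8.93 in WT_abx, where the library labelled WT_abx 4 was the lowest of all 35. The fold of abx against control in WT was -0.15 ± 0.07, adjusted p = 0.533 (limma), and without the library labelled WT_abx 4 it was -0.09 with adjusted p = 0.833. In bulk tissue, fewer cells of a type and less RNA per cell cannot be told apart.

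The log2 difference of Gria1 and Gria2 asks whether the balance of these subunits differed between genotypes. In control it was -0.87 ± 0.14 (SD, n = 4) in KO and -0.89 ± 0.19 (n = 6) in WT. With acetate it was -0.69 ± 0.07 in KO (n = 5) and -0.85 ± 0.23 in WT (n = 5), where WT_acetate 3 was at -1.20. In the exact 2-sided permutation tests over libraries, adjusted p was 0.762 or more in all 4 treatments, with differences of -0.11 to 0.17.

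The NMDA receptor subunits held the receptor gene with the smallest p of all, Grin2a, but none of the 6 passed the test. Grin1, the obligatory subunit, supplied 54.4% ± 2.7 of the family's summed CPM per kb, Grin2b 18.1% ± 2.3, Grin2c 10.8% ± 2.1, Grin2a 10.2% ± 0.95, Grin2d 3.54% ± 0.40 and Grin3a 3.01% ± 0.54 (SD, n = 35). With longest transcripts Grin1 reached 70.5% and Grin2b 10.7%, and Grin2a (7.13%) came before Grin2c (6.34%). Grin1 itself varied little, from 8.88 to 9.54, and its KO minus WT fold averaged over treatments was -0.02 ± 0.05, with an interval from -0.12 to 0.07.

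Grin2a (chromosome 16, 9567898 to 9995560, minus strand, GRCm38) encodes GluN2A, the subunit that gives fast-closing NMDA receptors and becomes more abundant as cortex matures. In KO_control it was at 8.04, 8.06, 7.80 and 8.03, and in KO_acetate at 7.10, 7.64, 7.87, 7.78 and 7.59. Of the KO_acetate libraries 4 lay below all KO_control libraries, and KO_acetate 3 lay above the lowest of them, so the groups overlapped. The fold was -0.38 ± 0.11 (SE; interval -0.62 to -0.15), adjusted p = 0.205 (limma), a comparison in which 13.0% of all genes had an unadjusted p below 0.05. KO_acetate 1, whose markers are given with the libraries that stand apart, held the lowest value of Grin2a. Without it the fold was -0.26 ± 0.10, adjusted p = 0.410.

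In KO_abx_and_acetate Grin2a was at 7.61, 7.75, 7.76 and 7.58. These 4 libraries all lay below the 4 of KO_control, by a fold of -0.31 ± 0.12, adjusted p = 0.551, and below the 4 of WT_abx_and_acetate (7.90, 7.81, 7.84 and 8.15), by a fold of -0.26 ± 0.12, adjusted p = 0.999 (limma). Over all genes, 3.83% did not overlap between KO_abx_and_acetate and KO_control and 3.15% between KO_abx_and_acetate and WT_abx_and_acetate. The comparisons of KO_acetate and of KO_abx_and_acetate share the KO_control libraries, the group with the highest mean of Grin2a, 7.98. With antibiotics alone, KO_abx was at 7.67, 7.82 and 7.84, and its fold against KO_control did not reach an unadjusted p of 0.05.

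In WT mice the Grin2a values with acetate overlapped those of control. Grin2a ran from 7.67 to 7.97 in WT_control (median 7.84) and was at 7.94, 7.998, 7.78, 7.83 and 7.54 in WT_acetate. The difference between genotypes was tested as an interaction: -0.38 ± 0.15 for acetate (adjusted p = 0.997) and -0.41 ± 0.16 for abx_and_acetate (adjusted p = 0.999, limma), so neither was called. Without KO_acetate 1 the former was -0.25. With acetate the KO minus WT fold was -0.23 ± 0.11 (adjusted p = 0.827), and -0.10 without KO_acetate 1.

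Grin2b (chromosome 6, 135713233 to 136173511, minus strand, GRCm38) encodes GluN2B, the subunit of slower NMDA receptors that prevails in early development. WT_abx was at 9.06, 8.72, 9.08 and 8.50, and WT_abx_and_acetate at 9.28, 9.27, 9.13 and 9.37. All 4 libraries with acetate added lay above the 4 with antibiotics alone, and 3.07% of all genes did not overlap in this comparison. The fold was 0.43 ± 0.15, adjusted p = 0.720 (limma). The library labelled WT_abx 4 held the lowest value of Grin2b of all 35, and without it the fold was 0.31, adjusted p = 0.99970.

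In KO, Grin2b was at 9.24, 9.52, 9.22 and 9.12 in KO_control and at 8.82, 8.87, 9.19, 8.89 and 8.92 in KO_acetate. As for Grin2a, 4 of 5 KO_acetate libraries lay below all of KO_control and KO_acetate 3 did not. The fold was -0.34 ± 0.14, adjusted p = 0.309 (limma), and -0.31 without KO_acetate 1. Averaged over treatments, Grin2b differed between genotypes by 0.03 ± 0.07.

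The log2 difference of Grin2a and Grin2b within a library follows the balance of these subunits. Grin2a minus Grin2b was -1.34 ± 0.23 (SD, n = 5) in KO_acetate, -1.23 ± 0.27 (n = 5) in WT_acetate, -1.29 ± 0.18 (n = 4) in KO_control and -1.28 ± 0.15 (n = 6) in WT_control. The genotype difference closest to the threshold was that with antibiotics, -1.34 ± 0.17 (n = 3) in KO against -1.18 ± 0.08 (n = 4) in WT. Its exact 2-sided permutation p was 0.0857, where 0.0286 is the smallest this design allows, and over the 8 such tests it was 0.686 after adjustment.

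Grin3a, singled out after its values were seen, encodes a subunit that lowers calcium entry through NMDA receptors. It was at 5.20, 5.57, 5.34 and 4.88 in KO_control, at 6.004, 5.49 and 5.40 in KO_abx and at 5.40, 5.58, 5.93 and 5.80 in KO_abx_and_acetate. The groups overlapped. The fold over KO_control was 0.44 ± 0.16 with both agents (adjusted p = 0.530) and 0.38 ± 0.17 with antibiotics (adjusted p = 0.999, limma). Without KO_control 4, the lowest library, the former was 0.31. At their smallest p, Grin2c had a fold of -0.23 ± 0.14 for acetate against control in WT (adjusted p = 0.661) and Grin2d one of -0.21 ± 0.10 for KO against WT with acetate (adjusted p = 0.827, limma), which was -0.12 without KO_acetate 1.

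Of the kainate receptor subunits none passed the test. Grik5, which encodes a high-affinity subunit that needs a partner to form a channel, supplied 69.8% ± 3.3 (SD, n = 35) of the family's summed CPM per kb, and Grik3 17.3% ± 3.3. Grik4 supplied 6.28%, Grik2 4.29% and Grik1 2.36%. Here the gene model mattered little: with longest transcripts Grik5 held 72.3% and Grik3 14.1%.

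Grik3 varied most among the kainate subunits, with a residual SD of 0.34 that exceeded that of 79.6% of all genes. KO_control was at 6.74, 6.95, 6.69 and 6.25, KO_acetate at 7.43, 7.44, 6.61, 6.95 and 7.17, and KO_abx_and_acetate at 7.11, 6.65, 7.17 and 7.35. WT_control ran from 6.30 to 7.22 (median 6.67), and 3 of its libraries were at 6.97 or above and 3 at 6.36 or below. The fold of abx_and_acetate over control in KO was 0.47 ± 0.23, adjusted p = 0.667 (limma). Its interval, 0.01 to 0.93, was wide. Grik3 was also the 1 receptor gene with an unadjusted p below 0.05 for labelled sex, 0.25 ± 0.11 higher in males, adjusted p = 0.999.

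The delta receptor subunit Grid1, which binds cerebellin at synapses rather than acting as a typical glutamate-gated channel, was steady. It ran from 5.88 to 6.401 over the 35 libraries, with a residual SD of 0.12. Its smallest p was that of acetate against control in KO. KO_control was at 6.08, 6.24, 6.03 and 6.04 and KO_acetate at 6.30, 6.30, 6.11, 6.25 and 6.14, which overlapped, with a fold of 0.12 ± 0.08, adjusted p = 0.516 (limma).

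Among the metabotropic receptors none passed the test. Grm3 and Grm2, which lower cAMP and of which Grm3 is also found in astrocytes, supplied 31.6% ± 2.3 and 23.7% ± 3.7 (SD, n = 35) of the summed CPM per kb, and Grm5, which releases calcium through Gq and is tied to Shank proteins through Homer, supplied 22.3% ± 2.0. Grm7 followed with 13.1%, Grm4 with 6.09% and Grm8 with 3.07%. With longest transcripts Grm3 held 27.0%, Grm5 24.2% and Grm2 21.0%, so the order of Grm2 and Grm5 rests on the gene model. Grm5 ran from 7.29 to 7.58 in WT_control (median 7.37) and was at 7.28, 7.51, 7.38 and 7.24 in KO_control. Its KO minus WT fold averaged over treatments was 0.01 ± 0.06, with an interval from -0.11 to 0.13.

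Grm7 (chromosome 6, 110645581 to 111567230, plus strand, GRCm38) encodes a presynaptic receptor of low glutamate affinity. WT_abx was at 5.77, 5.76, 5.75 and 5.59, below all of KO_abx at 5.996, 5.98 and 5.78 and all of WT_abx_and_acetate at 5.93, 5.87, 5.84 and 5.98. These comparisons share the WT_abx libraries. Over all genes, 5.33% did not overlap between KO_abx and WT_abx, and 3.07% between WT_abx_and_acetate and WT_abx. The folds were 0.20 ± 0.09 for KO over WT (adjusted p = 0.995) and 0.18 ± 0.08 for acetate added to antibiotics (adjusted p = 0.801, limma). Without the library labelled WT_abx 4 they were 0.16 and 0.14.

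Grm2, singled out after its values were seen, had the largest residual SD of the 31 genes, 0.45. KO_acetate was at 4.33, 6.48, 6.64, 6.59 and 6.83, while the other 34 libraries ran from 6.01 to 6.84. KO_acetate 1, the low one, had 386 reads of Grm2. The KO minus WT fold with acetate was -0.35 ± 0.27, adjusted p = 0.924, and 0.15 without KO_acetate 1. Acetate against control in KO went from -0.13 to 0.33 (adjusted p = 0.467) when it was left out, so the sign of both folds rested on that library.

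The AMPA receptor auxiliary subunits are the TARPs Cacng2, Cacng3 and Cacng8, which carry AMPA receptors to the postsynaptic density, the cornichon Cnih2, and Shisa6, Shisa7 and Shisa9, which alter gating and placement. None of the 7 passed the test. With antibiotics present against absent, averaged over genotype and acetate, their folds ran from -0.14 (Cacng2) to -0.02 (Cnih2). Without KO_acetate 1 the folds of Cnih2 (0.0015) and Shisa6 (0.0031) were just above zero, and 5 of the 7 were below it. Without the library labelled WT_abx 4 the fold of Cnih2 was 0.00, and 6 of the 7 were below zero. Cnih2 was at 7.16 to 7.61 in WT_control (median 7.38) and its KO minus WT fold averaged over treatments was 0.04 ± 0.07.

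Shisa9 (chromosome 16, 11984113 to 12270902, plus strand, GRCm38), also named CKAMP44, had the second smallest p of the 31 genes. It ran from 5.99 to 6.17 in WT_control (median 6.07) and was at 5.89, 5.94, 5.92 and 5.67 in WT_abx_and_acetate, where all 4 libraries lay below those of WT_control. In KO it was at 5.57, 6.13, 5.91 and 5.93 in control and at 6.06, 5.95, 6.18 and 6.19 in KO_abx_and_acetate. With both agents, every KO library lay above every WT library. Of all genes 4.73% did not overlap in the comparison within WT, and 3.15% in that between genotypes.

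The Shisa9 folds were -0.25 ± 0.10 for abx_and_acetate against control in WT (adjusted p = 0.247) and 0.28 ± 0.11 for KO over WT with both agents (adjusted p = 0.999, limma). The interaction of abx_and_acetate with genotype was 0.47 ± 0.15 (interval 0.16 to 0.78), adjusted p = 0.877. Without KO_control 1, the lowest library, it was 0.36. KO_acetate 1 held the highest Shisa9 value, 6.57, while the other 4 KO_acetate libraries were at 5.95 to 6.04. The Shisa9 fold of acetate against control in KO was 0.22 with this library and 0.11 without it.

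Cacng2 and Cacng3, singled out after their values were seen, encode stargazin and the related TARP gamma-3. Cacng2 was at 6.83, 7.01, 7.20 and 7.35 in KO_control and at 6.14, 6.71, 7.08, 6.79 and 6.79 in KO_acetate, with a fold of -0.39 ± 0.14, adjusted p = 0.279 (limma). Without KO_acetate 1 it was -0.25, adjusted p = 0.498. Cacng3 was at 6.12, 6.98, 7.40, 7.09 and 7.29 in KO_acetate and at 7.44, 7.49, 7.23, 7.40 and 7.22 in WT_acetate, with a fold of -0.40 ± 0.16, adjusted p = 0.827, and of -0.18 without KO_acetate 1. In both genes the lowest of all 35 libraries was KO_acetate 1.

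Shisa6 was at 3.65, 3.44, 3.29 and 3.79 in KO_control and ran from 2.97 to 3.63 in WT_control (median 3.19). The groups overlapped, and the fold was 0.31 ± 0.15, adjusted p = 0.9995 (limma). Shisa7 had a fold of -0.21 ± 0.10 for acetate against control in KO, adjusted p = 0.366, and of -0.17 without KO_acetate 1, adjusted p = 0.553. Cacng8 had no p below 0.05 in any comparison, and its largest fold in size was 0.10.

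Neto2 encodes an auxiliary subunit that slows the closing of kainate receptors. It was the receptor gene with the smallest p for genotype averaged over treatments, at -0.16 ± 0.07 (interval -0.30 to -0.01), adjusted p = 0.931 (limma), where 5.25% of all genes had an unadjusted p below 0.05. Without the 3 libraries of intermediate Shank3 the fold was -0.22 (interval -0.37 to -0.07), adjusted p = 0.647 (limma). Of all settings tried it was smallest in size without KO_abx 1, at -0.12. KO was lower in all 4 treatments, yet the groups overlapped in each: KO_control was at 5.47, 5.90, 5.88 and 5.99 and WT_control ran from 5.64 to 6.21 (median 5.97), and KO_acetate was at 6.07, 5.65, 5.91, 5.88 and 5.57 against 6.02, 5.96, 6.21, 5.99 and 5.80 in WT_acetate. Its partner Neto1 was 0.04 ± 0.06 higher in KO, adjusted p = 0.96.

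**Figure D4:**
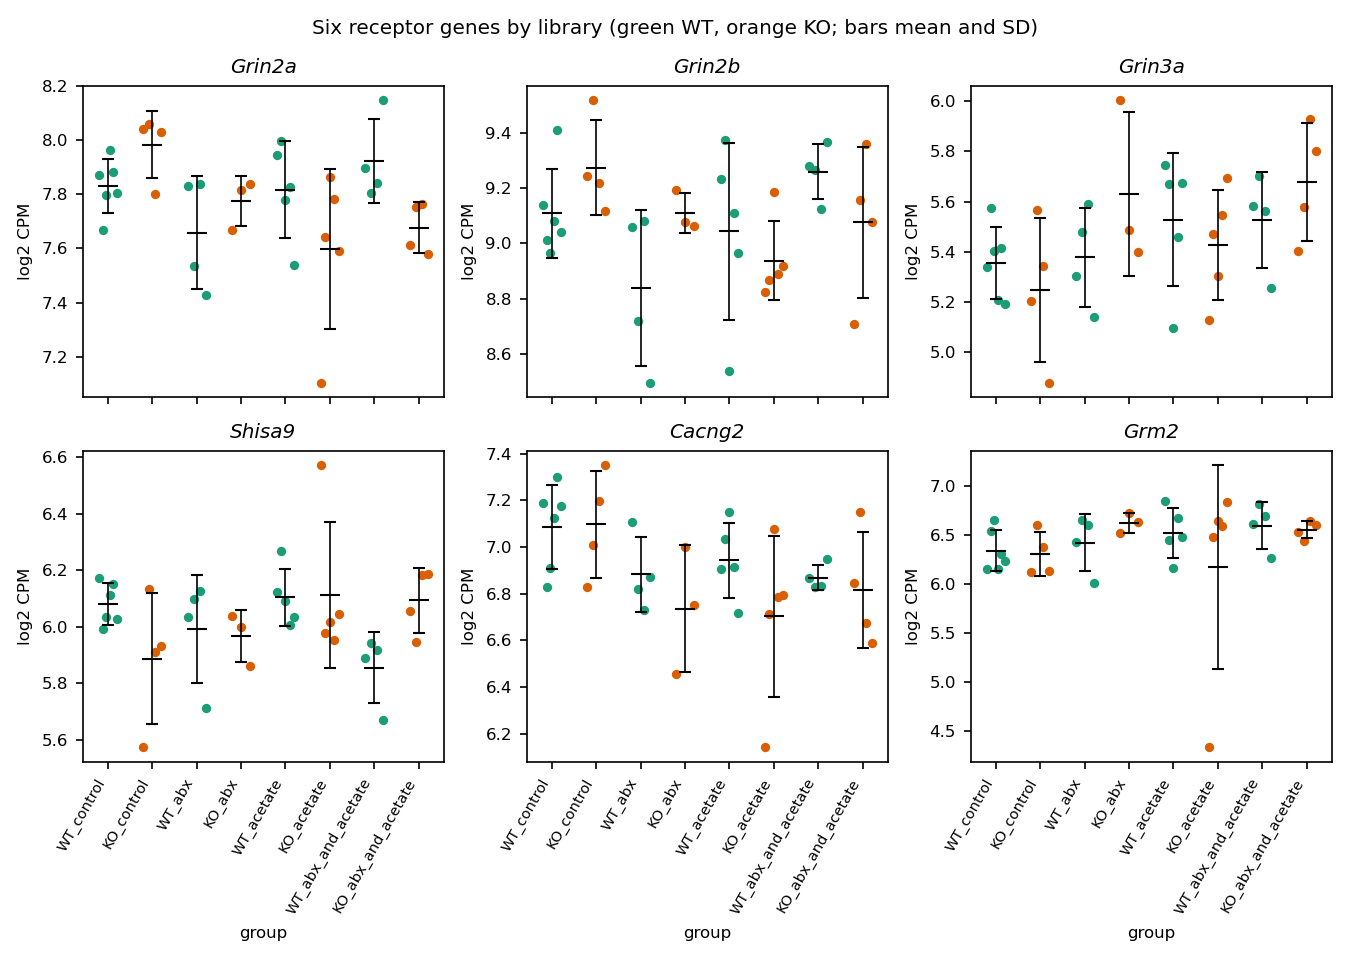
Log2 CPM of Grin2a, Grin2b, Grin3a, Shisa9, Cacng2 and Grm2 in each library by group (points, WT green and KO orange, with the group mean and SD as bars). Grin2a lies at 7.80 to 8.06 in KO_control and at 7.58 to 7.76 in KO_abx_and_acetate, and the single low point of Grm2 at 4.33 is KO_acetate 1.

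A few libraries held many of the extreme values. Each gene has a highest and a lowest library, which gives 62 extremes, and KO_acetate 1 held 16 of them, the library labelled WT_abx 4 held 8 and WT_acetate 3 held 6. Another 17 libraries held none. The median distance of a receptor gene from its group's fitted value was 0.29 in KO_acetate 1, where it was 0.16 over all genes. In the library labelled WT_abx 4 it was 0.25 (0.14 over all genes) and in WT_acetate 3 it was 0.22 (0.13 over all genes), against 0.06 to 0.16 in the other 32 libraries. The counts of extremes were not made over all genes, nor were the counts below of genes outside the range of a group's other libraries. In a small group any library is the lowest or highest for some genes. These counts therefore do not say what is particular to the receptor genes.

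KO_acetate 1 differed in both directions. Against the other 4 libraries of its group, 12 receptor genes lay above all of them, 13 below and 6 within. Grm2 was lower by 2.30 than their mean, Cacng3 by 1.07, Grm8 by 0.87 and Grin2a by 0.62, whereas Grm4 was higher by 0.82, Shisa6 by 0.81, Grin2c by 0.63 and Shisa9 by 0.57. Gria1, Gria2 and Gria3 stood within the range of the others.

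In the same library the summed CPM of 12 markers of striatal medium spiny neurons, the neurons of a region beneath the cortex, was 1472, where the other 34 libraries had 300 to 372. In it 11 of these 12 markers were above every other library. The 12 oligodendrocyte markers summed to 9932 (1192 to 5129 in the others), all 12 above every other library, and the 12 excitatory neuron markers to 5127 (7229 to 9662 in the others). No marker of these 3 lists was at 0 reads in any library. The part of this in the receptor values of KO_acetate 1 was not tested. Without it, 0 receptor genes had an unadjusted p below 0.05 in KO against WT with acetate (3 with it). In acetate against control in KO 5 had without it (Grin2a, Grin2b, Grm2, Grm8 and Shisa6) and 5 with it, but the genes were not the same. Cacng2, Shisa7 and Shisa9 were below 0.05 only with it, and Grm2, Grm8 and Shisa6 only without it. None passed the adjusted threshold in either comparison.

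The library labelled WT_abx 4 differed mostly in 1 direction. Of the 31 receptor genes 24 lay below all other WT_abx libraries, 2 above (Grin2d and Grm4) and 5 within. Grm5 was lower by 0.60 than their mean, Gria1 by 0.56, Grm2 by 0.54 and Grin2b by 0.46. Its 9 markers of meninges and choroid plexus summed to a CPM of 402, each above every other library, where the others had 29.3 to 150, and its 7 endothelial markers to 421 (214 to 370 in the others). Its 10 astrocyte markers summed to 2532 (1702 to 2437 in the others), 1 of them above every other library. Its excitatory neuron markers, at 7807, were within the range of the others. Of the meningeal and choroid plexus list, Ttr was at 0 reads in 3 libraries and Clic6 in 1. The part of this in the receptor values was not tested. Without this library, 0 receptor genes had an unadjusted p below 0.05 in abx against control in WT and in KO against WT with abx, and 2 had (Grin2b and Shisa9) in abx_and_acetate against abx in WT, with none past the adjusted threshold.

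WT_acetate 3 differed from the other 4 WT_acetate libraries mostly downwards, with 17 receptor genes below all of them, 6 above and 8 within. Grin2b was lower by 0.63 than their mean, Grik3 by 0.59, Grin3a by 0.54 and Gria1 by 0.51, whereas Grm4 was higher by 1.01. Its 11 inhibitory neuron markers summed to a CPM of 1466 (921 to 1281 in the others), 3 of them above every other library, and its excitatory neuron markers, at 8348, were within the range. The part of this in the receptor values was not tested. Without WT_acetate 3 the KO minus WT fold with acetate was 0.07 for Gria1 (0.17 with it), -0.23 for Grin2b (-0.11 with it) and 0.25 for Grm4 (0.06 with it). The interaction of acetate with genotype was then -0.40 for Grin2b (-0.28 with it), adjusted p = 0.997 (limma). No receptor gene passed the adjusted threshold without this library.

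**Figure D5:**
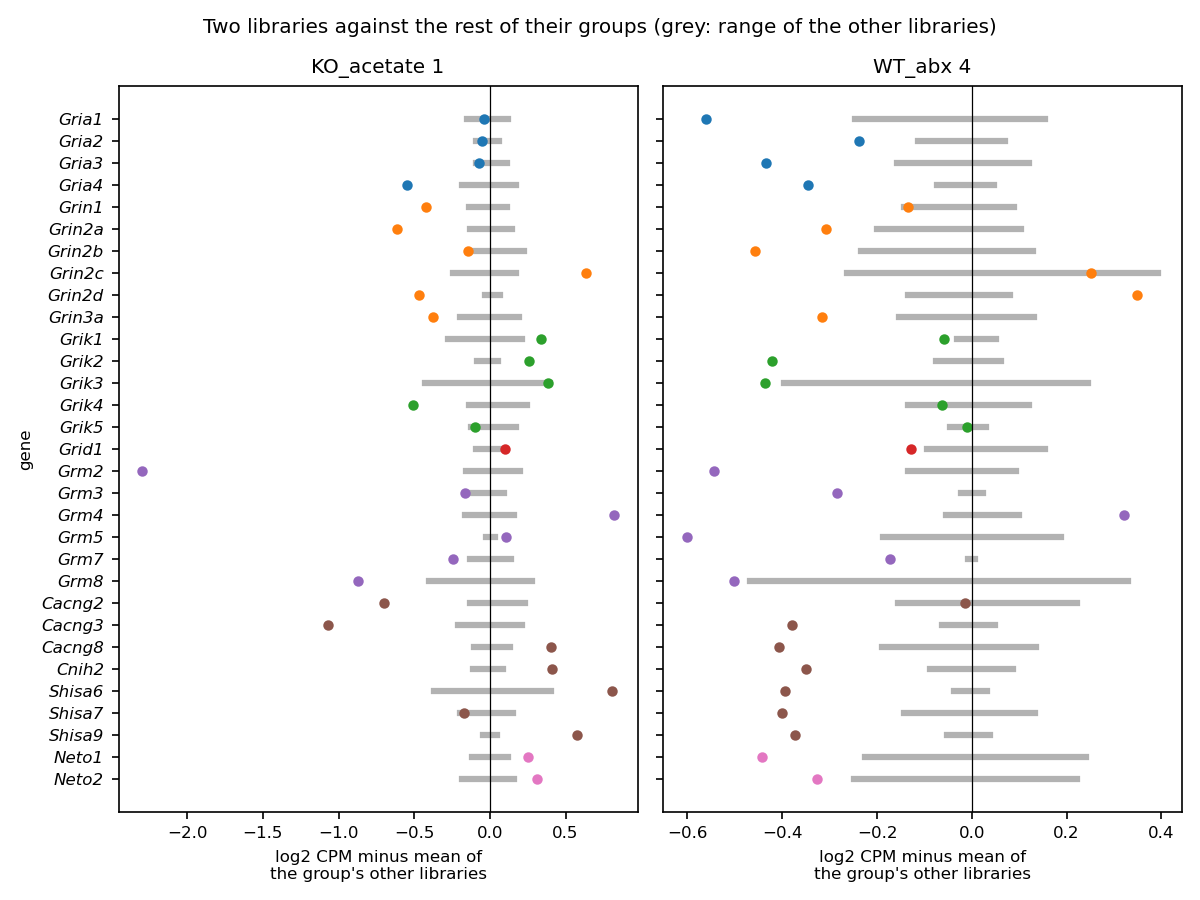
Log2 CPM of each receptor gene in KO_acetate 1 and in the library labelled WT_abx 4, as the difference from the mean of the other libraries of the group (points), with the range of those libraries in grey; the horizontal scales of the panels differ. In KO_acetate 1 12 points lie right of the grey range and 13 left of it, in the other library 2 and 24. The same counts were not made over all genes.

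The genes that work with these receptors were taken from 4 lists: other receptor genes, receptor assembly and trafficking, postsynaptic signalling, and glutamate release and uptake. Of 75 genes 73 have a row in the matrix, and 0 of 73 passed the test in any comparison. In KO against WT averaged over treatments, 7 of 8 other receptor genes were higher (median 0.08), 11 of 24 assembly and trafficking genes (median -0.01), 11 of 26 signalling genes (median -0.01) and 6 of 15 release and uptake genes (median -0.01).

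In each list the gene with the smallest p for genotype is named. Cacng5, a TARP of the other receptor genes, had a fold of 0.34 ± 0.15, adjusted p = 0.931 (limma). In KO_acetate it ran from 2.12 to 4.69 (median 2.68, n = 5), and the highest value was that of KO_acetate 1. All libraries of the other 7 groups stayed at or below 2.79, but KO_acetate 1 was not the only library of its group above that level. Without KO_acetate 1 the fold of Cacng5 was 0.23. Gripap1, an adaptor of receptor recycling, had a fold of 0.08 ± 0.03, adjusted p = 0.928, and Slc1a3, the astrocytic glutamate transporter, one of -0.06 ± 0.05, adjusted p = 0.957.

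Homer1, the postsynaptic scaffold that joins Grm5 to Shank proteins, came closest to the threshold of all genes in the 4 lists. It ran from 7.44 to 8.79 in WT_control (median 8.49) and from 7.20 to 7.36 in WT_abx_and_acetate (median 7.29), so the groups did not overlap, as for 4.73% of all genes. The fold was -0.89 ± 0.23, adjusted p = 0.0577 (limma), in the comparison with 0.726% of all genes called. Grm5 there had a fold of 0.13 ± 0.11, adjusted p = 0.651. In KO_control Homer1 ran from 7.11 to 8.47. The fall against control was not particular to both agents in WT. In WT the Homer1 fold against control was -0.72 for abx and -0.55 for acetate. In KO it was -0.65 for abx, -0.57 for acetate and -0.54 for abx_and_acetate. For abx_and_acetate against abx in WT it was -0.17. The control groups of Homer1 were widely spread, with an SD of 0.61 in WT and 0.57 in KO. Its fold for genotype averaged over treatments was -0.25 ± 0.12, adjusted p = 0.957.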

How the data were processed

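The authors deposited 1 matrix of log2 CPM values for 35 libraries and 14870 genes, in the form voom gives, log2 of reads plus 0.5 scaled to an effective library size. That size was taken from the smallest value of each library, and it differed from the library's summed reads. Of tools, only limma is named in the submitters' processing notes (no version). Aligner, counting tool, build and low-count filter are not stated in these sources. Solving this form for the reads gave whole numbers for all values (tolerance 0.01), and from them depth (12.8 M to 28.0 M reads) and reads per gene, and 0 sample columns were left unused.

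All 35 libraries entered 1 fit in limma 3.58.1 (R 4.3.3) with 8 group means, the labelled sex as an added term and a prior variance that follows the mean. No pseudocount or filter was added. Each of 18 comparisons was tested 2-sided, with Benjamini-Hochberg adjustment across the 14870 genes and a threshold of 0.05. The subunit differences used exact permutation tests, adjusted over 8. The script was tested on simulated data.

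The named genes are, in each subclass, the one with the smallest p, those with the 2 highest and 2 lowest levels per kb, and Gria1, Gria2, Grin1, Grin2a, Grin2b and Grm5. Others are said to be singled out, or are given for a library that stood apart or for completeness. In each list of working partners it is the gene with the smallest p for genotype. The members and lists were chosen with earlier results of these data known. Lengths and positions came from GENCODE vM21 (GRCm38), which matched 14404 symbols (96.9%) to 1 gene. Marker lists for 9 cell types were summed as CPM per library. Other settings, among them leaving out each library, are compared in the closing section.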

Additional observations from a re-analysis of the deposited data

Results flagged for a closer look

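In groups of 4 to 6 libraries, the value at either end was set against the range of its group (Dixon's criterion), for 217 combinations of a receptor gene and a group. In 15 of them 1 library lay apart, where chance at 1 in 20 gives about 10.85. KO_acetate 1 lay apart in 3, with Grin2d at 4.30 (nearest 4.74, other end 4.84), Grm2 at 4.33 (nearest 6.48, other end 6.83) and Shisa9 at 6.57 (nearest 6.04, other end 5.95). The library labelled WT_abx 4 lay apart in 3, with Grm3 at 5.92 (nearest 6.18, other end 6.23), Grm7 at 5.59 (nearest 5.75, other end 5.77) and Shisa6 at 2.94 (nearest 3.30, other end 3.37). WT_acetate 3 lay apart in 2, with Gria4 at 6.60 (nearest 6.84, other end 6.92) and Grm5 at 7.08 (nearest 7.495, other end 7.61). The other 7 were each in a library of its own. They were Grin2a in KO_control 3, 7.80 (nearest 8.03), Grin2b in KO_acetate 3, 9.19 (nearest 8.92) and Grik2 in WT_abx_and_acetate 2, 5.29 (nearest 5.41). Further values were Grm4 in KO_abx_and_acetate 1, 4.98 (nearest 4.52), Cacng3 in KO_control 1, 6.73 (nearest 7.33) and Cnih2 in WT_abx_and_acetate 4, 6.94 (nearest 7.46). The last was Neto2 in KO_abx_and_acetate 2, 6.07 (nearest 5.63).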

How the results depend on the processing

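No receptor gene was called in any of the 18 comparisons under any of the settings tried, which were no sex term, only the groups compared, no trend in the prior variance, voom weights, an offset of 2 reads, quantile normalization, genes with a mean log2 CPM of at least 0, without the 3 libraries of intermediate Shank3, without the 4 libraries against their sex label, RNA integrity number (RIN) as an added term, and without each library in turn. The fold of each receptor gene in the comparison of its smallest p kept its direction in all 310 fits under other settings and all 1085 without 1 library. That comparison was picked by its p in these same data, so a kept direction was likely beforehand and does not test robustness. Folds not picked in this way could change sign. For Grm2, acetate against control in KO went from -0.13 to 0.33 without KO_acetate 1. The adjusted p nearest to the threshold was 0.104, for Grin2a in acetate against control in KO without KO_acetate 3, and it was at most 0.583 over the settings. The genotype differences of Grin2a minus Grin2b and of Gria1 minus Gria2 kept their direction in 62 of 70 values without 1 library. Without 1 library, Grin2a minus Grin2b ran from -0.083 to 0.0412 in control, from -0.172 to 0.00343 with acetate (positive without WT_acetate 3) and from -0.165 to 0.00314 with abx_and_acetate (positive without KO_abx_and_acetate 3), and Gria1 minus Gria2 in control from -0.0434 to 0.0857. These differences are smaller than their spread. The cause was not tested. Over all settings the lowest difference of Grin2a minus Grin2b with acetate was -0.316, without the 4 libraries against their sex label. No paired analysis was possible because the labels give no replicate numbers. Every receptor gene had at least 141 reads in each library, and the groups have 3 to 6 libraries.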

Other observations

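For labelled sex, 0 of 31 receptor genes passed the test and 1 (3.23%) had an unadjusted p below 0.05. Over all genes 10 passed and 3.07% had such a p.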
